A study of Mus musculus with 7 samples.

Results

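The hypoxia response and glycolysis were followed through 39 genes in bulk RNA of mouse skin tumours. The genes were taken by name from a list of oxygen-sensing factors, glucose and lactate transporters, glycolytic enzymes, enzymes at the pyruvate and lactate branch, carbonic anhydrases and other known targets of hypoxia. The count table held all 39, and all 39 were among the 24433 genes tested of its 55423 entries. In Ivl:BRAFV600E mice, a tamoxifen-inducible Cre recombinase under the involucrin (Ivl) promoter turned on the BRAF oncogene in the IVL+ keratinocytes of the skin. Ivl:BRAFV600E-SOX2LSL mice carried the same alleles and a Rosa26 allele from which Cre also released SOX2 and eGFP. Both genotypes received topical tamoxifen at an age of 7 to 10 weeks per the labels, and their squamous cell carcinomas were taken at the clinical endpoint. Ivl:BRAFV600E-SOX2LSL mice reached that endpoint sooner after induction, so genotype and time since induction cannot be told apart. The labels list 4 Ivl:BRAFV600E and 3 Ivl:BRAFV600E-SOX2LSL tumours, and 3 of each, from 6 mice, were compared. They are numbered 1 to 3 within a genotype in the order of the table. The comparison asked whether forced SOX2 expression changed the transcripts of oxygen sensing and glucose use in BRAF-driven tumours.

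Cells sense oxygen through the hypoxia-inducible factors (HIFs). Prolyl hydroxylases mark the alpha subunit of HIF while oxygen is present, VHL then directs it to degradation, and in hypoxia the subunit persists, pairs with ARNT and binds short DNA elements near its target genes. Many targets move glucose into the cell, break it down to pyruvate and dispose of lactate and acid, and others act on blood vessels, mitochondria and collagen. HIF alpha subunits are controlled largely at the protein level, which RNA counts do not show.

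The promoters of 3 genes are printed to show the elements that HIF recognises, since the transcripts of these genes are described further on. They belong to Ldha, which makes lactate from pyruvate, Pgk1, a glycolytic kinase, and Bnip3, a mitochondrial mitophagy receptor. Each sequence is the 250 bases before a RefSeq transcription start on GRCm38.p6, written 5′ to 3′ on the strand of the gene. Capitals mark ACGTG or GCGTG, the core of the HIF element, on either strand, where the reverse strand reads CACGT or CACGC. The Ldha window is chr7:46845554-46845803 (plus strand), 1 of the 2 starts listed for this gene, and it holds 5 matches of ACGTG on both strands together. The Pgk1 window is chrX:106186850-106187099 (plus strand), with 2 matches of ACGTG. The Bnip3 window is chr7:138909507-138909756 (minus strand), with 2 matches of ACGTG and 3 of GCGTG.
Ldha: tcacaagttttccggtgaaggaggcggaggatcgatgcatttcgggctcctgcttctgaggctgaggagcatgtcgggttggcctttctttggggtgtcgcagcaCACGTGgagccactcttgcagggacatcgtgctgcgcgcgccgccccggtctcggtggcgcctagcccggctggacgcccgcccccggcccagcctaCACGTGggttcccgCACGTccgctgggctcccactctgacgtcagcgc
Pgk1: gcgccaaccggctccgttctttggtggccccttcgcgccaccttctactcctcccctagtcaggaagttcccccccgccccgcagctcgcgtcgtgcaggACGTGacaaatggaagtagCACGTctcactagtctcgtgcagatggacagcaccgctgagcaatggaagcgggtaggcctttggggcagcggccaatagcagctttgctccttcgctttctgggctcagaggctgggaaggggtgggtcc
Bnip3: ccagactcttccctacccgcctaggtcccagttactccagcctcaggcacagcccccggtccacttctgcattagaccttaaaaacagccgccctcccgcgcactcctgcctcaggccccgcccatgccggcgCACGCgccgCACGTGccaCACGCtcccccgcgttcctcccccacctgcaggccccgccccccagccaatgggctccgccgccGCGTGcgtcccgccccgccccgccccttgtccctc

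RefSeq promoters, from 250 bases before to 50 after the start, were matched for 36 of the 39 genes, and not for Epas1, Slc2a3 and Ndrg1. Of these 36 genes, 32 (88.9%) held ACGTG or GCGTG in at least 1 promoter, against 60.9% of the tested genes with a promoter and 46.7% of all genes of the table. ACGTG alone was found for 24 of 36 (66.7%), against 26.6% of tested genes and 21.8% of all genes. Neither motif was in the windows of Car12, Gpi1, Tpi1 and Vhl. The promoters of the 36 genes were also richer in G and C, with 62.5% against 58.8% in tested genes, and the shares are not corrected for this. A match describes the letters in the window and is not evidence of binding.

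The 6 libraries held between 23565432 and 31152826 counts on genes, and the gene with the most counts took between 11.2% and 16.8% of them. A level of 3 counts, the smallest taken as detected, was between 0.0839 and 0.143 counts per 1 M of library (CPM, after scaling by TMM), and covers counting error only. Sox2 was at 0.716, 0.508 and 0.238 CPM in the Ivl:BRAFV600E tumours and at 182, 155 and 158 CPM in the Ivl:BRAFV600E-SOX2LSL tumours, as labelled. Keratinocyte markers, summed over 8 genes, were abundant in all tumours, at 85658 to 131629 CPM and 14029 to 50820 CPM. Of the 8, 0 were called, 5 had a log2 fold change below 0 and 3 above, and 2 were lower and 1 higher without overlap. Their single log2 fold changes (Ivl:BRAFV600E-SOX2LSL minus Ivl:BRAFV600E) ran from -3.06 to 0.69. Krt5 (0.29), Trp63 (0.10) and Krt14 (-0.65) overlapped between genotypes, so the sum does not stand for each marker. Of 20 skeletal muscle markers, 17 of the 19 tested were called higher in Ivl:BRAFV600E-SOX2LSL tumours, and their sum was 11.4 to 27.4 CPM against 927 to 3967 CPM, with Myh4 at 0 counts in all 3 Ivl:BRAFV600E tumours. In bulk tumour RNA, fewer cells of a type and less RNA per cell cannot be told apart.

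Epas1, which encodes HIF-2alpha, was the single gene of the 39 that passed the test between genotypes. It was called lower in Ivl:BRAFV600E-SOX2LSL tumours (edgeR's quasi-likelihood test, adjusted p below 0.05 over all genes tested). Of all genes tested, 3.9% were called in either direction, 2.39% higher and 1.51% lower, so 1 of 39 is not above the background. At an unadjusted p below 0.05 stood 10 of the 39 genes, against 25.7% of all genes tested. The median log2 fold change (Ivl:BRAFV600E-SOX2LSL minus Ivl:BRAFV600E, here and below) was -0.19 over the 39 genes and 0.04 over all genes, with 26 of 39 below 0. The values of the genotypes did not overlap for 13 of the 39 genes, with 10 lower and 3 higher in Ivl:BRAFV600E-SOX2LSL tumours. Among all genes tested, 34.2% did not overlap, 16% lower and 18.2% higher. The 10 were Epas1, Slc16a1, Hk2, Pfkl, Pfkfb4, Tpi1, Pgk1, Pgam1, Eno1 and Ldha, and the 3 were Egln2, Ldhb and P4ha1.

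**Figure D1:**
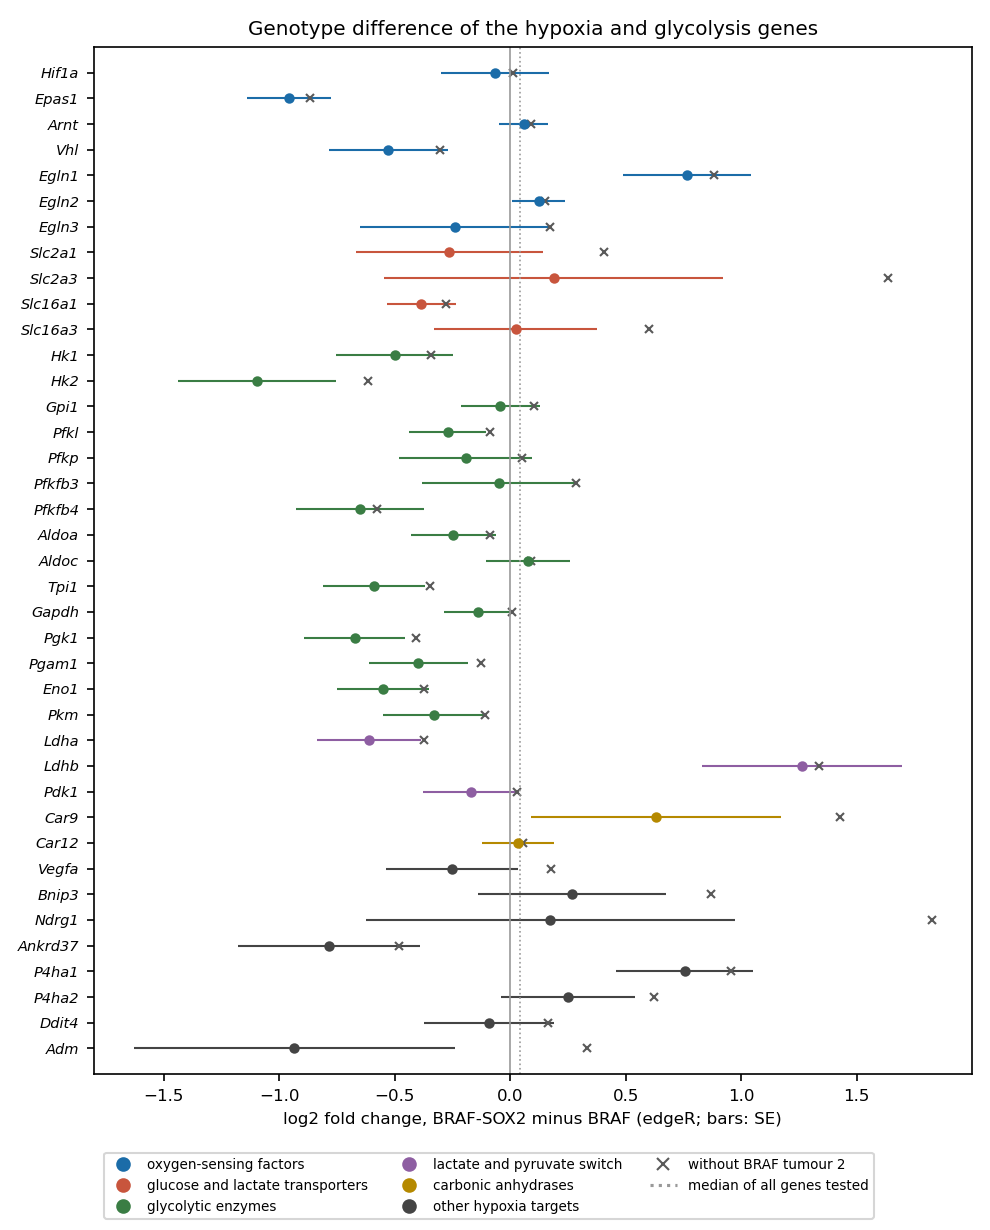
Log2 fold change of the 39 genes (x axis, Ivl:BRAFV600E-SOX2LSL minus Ivl:BRAFV600E, edgeR), listed by role on the y axis, with bars for the standard error. Crosses give the value without Ivl:BRAFV600E tumour 2, and the dotted line is the median of all genes tested. Most glycolytic enzymes lie left of 0, Epas1 lies at -0.96, and Ndrg1 and Slc2a3 move most to the right without that tumour.

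Among the oxygen-sensing factors, Epas1 (chr17:86753700-86833410 on GRCm38, plus strand) was at 351, 379 and 281 CPM in the 3 Ivl:BRAFV600E tumours and at 151, 162 and 207 CPM in the 3 Ivl:BRAFV600E-SOX2LSL tumours. Every Ivl:BRAFV600E tumour was above every Ivl:BRAFV600E-SOX2LSL tumour. The log2 fold change was -0.96 with a standard error of 0.18 (95% interval -1.38 to -0.53, edgeR adjusted p = 0.0388). The call held in 9 of 15 other analyses, but in only 1 of the 6 that left out a tumour, the one without Ivl:BRAFV600E-SOX2LSL tumour 1. Without each of the other 5 tumours the edgeR adjusted p was between 0.0518 and 0.161, and with sex as a covariate it was 0.0625. Over these 15 analyses the log2 fold change stayed between -1.10 and -0.83, and the adjusted p between 0.000134 and 0.161. HIF-2alpha is also made by endothelial cells, and 10 endothelial markers summed to 193 to 211 CPM in Ivl:BRAFV600E and 201 to 232 CPM in Ivl:BRAFV600E-SOX2LSL tumours. The sums of the keratinocyte and muscle markers given above did separate the genotypes, though only 2 of 8 keratinocyte markers were lower without overlap, and so did that of macrophage markers, at 59.0 to 109 CPM against 149 to 459 CPM. The part of cell composition in the value of Epas1 was not tested.

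Hif1a (chr12:73901375-73947530, plus strand), which encodes HIF-1alpha, was at 363, 481 and 462 CPM in Ivl:BRAFV600E tumours and at 299, 536 and 413 CPM in Ivl:BRAFV600E-SOX2LSL tumours. The genotypes overlapped fully, with the lowest and the highest value both in Ivl:BRAFV600E-SOX2LSL tumours. The log2 fold change was -0.07 with a 95% interval of -0.62 to 0.48 (edgeR adjusted p = 0.886), which leaves a modest change in either direction unresolved. Arnt, the shared partner of both alpha subunits, was the most even of these genes, at 59.0, 61.7 and 56.8 CPM and 63.0, 61.3 and 60.6 CPM. Its log2 fold change was 0.06 (95% interval -0.19 to 0.31, edgeR adjusted p = 0.762).

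Per kilobase of exon, Hif1a averaged 73.8 CPM and Epas1 60.2 CPM per kb in Ivl:BRAFV600E tumours, against 70.5 and 31.0 CPM per kb in Ivl:BRAFV600E-SOX2LSL tumours. Hif1a therefore took 49.5%, 54.6% and 60.9% of the summed HIF alpha transcripts (Hif1a, Epas1 and Hif3a) in the former and 65.3%, 75.8% and 65.4% in the latter. The shares did not overlap, with means of 55.0% ± 5.70 (SD, n = 3) and 68.8% ± 6.01 (SD, n = 3). An exact two-sided permutation test gave p = 0.1, the smallest that 3 against 3 tumours allow, and 0.186 after adjustment over 26 shares of this kind. Hif3a, the remaining alpha subunit, was between 0 and 0.181 CPM in the 6 tumours, near the level of 3 counts.

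The prolyl hydroxylases, which mark HIF alpha subunits, were not called. Egln1 (PHD2), the main oxygen sensor in most tissues, was at 53.2, 81.9 and 77.3 CPM in Ivl:BRAFV600E tumours and at 77.9, 131 and 152 CPM in Ivl:BRAFV600E-SOX2LSL tumours. The genotypes overlapped only through Ivl:BRAFV600E-SOX2LSL tumour 1, which was below Ivl:BRAFV600E tumour 2. Its log2 fold change was 0.77 with a standard error of 0.28, and edgeR did not call it (adjusted p = 0.143). It was called by limma voom (adjusted p = 0.0368) and without Ivl:BRAFV600E-SOX2LSL tumour 1 (edgeR adjusted p = 0.0306), and the adjusted p reached 0.344 in the other analyses. Egln2 (PHD1) was at 31.2, 34.9 and 34.9 CPM and 36.5, 37.2 and 36.3 CPM, a narrow difference without overlap (log2 fold change 0.12, edgeR adjusted p = 0.534). Egln3 (PHD3), itself a target of HIF, was at 135, 313 and 180 CPM and 92.5, 210 and 229 CPM, with overlapping ranges (log2 fold change -0.24, edgeR adjusted p = 0.749, and 0.17 without Ivl:BRAFV600E tumour 2).

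Egln3 was the most abundant hydroxylase per kilobase in every tumour, with 66.1%, 76.9% and 66.5% of the 3 in Ivl:BRAFV600E tumours and 50%, 61.3% and 60.9% in Ivl:BRAFV600E-SOX2LSL tumours. The share of Egln1 was 19.3%, 14.9% and 21.2% against 31.2%, 28.4% and 30.0%. Both shares separated the genotypes, again at the smallest exact p of 0.1. Vhl, which marks hydroxylated HIF alpha for degradation, was at 12.2, 24.7 and 20.8 CPM and 14.2, 12.7 and 13.1 CPM. Ivl:BRAFV600E tumour 1 was below all 3 Ivl:BRAFV600E-SOX2LSL tumours, and the other Ivl:BRAFV600E tumours were above them (log2 fold change -0.53, edgeR adjusted p = 0.248, and -0.31 without Ivl:BRAFV600E tumour 2).

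**Figure D2:**
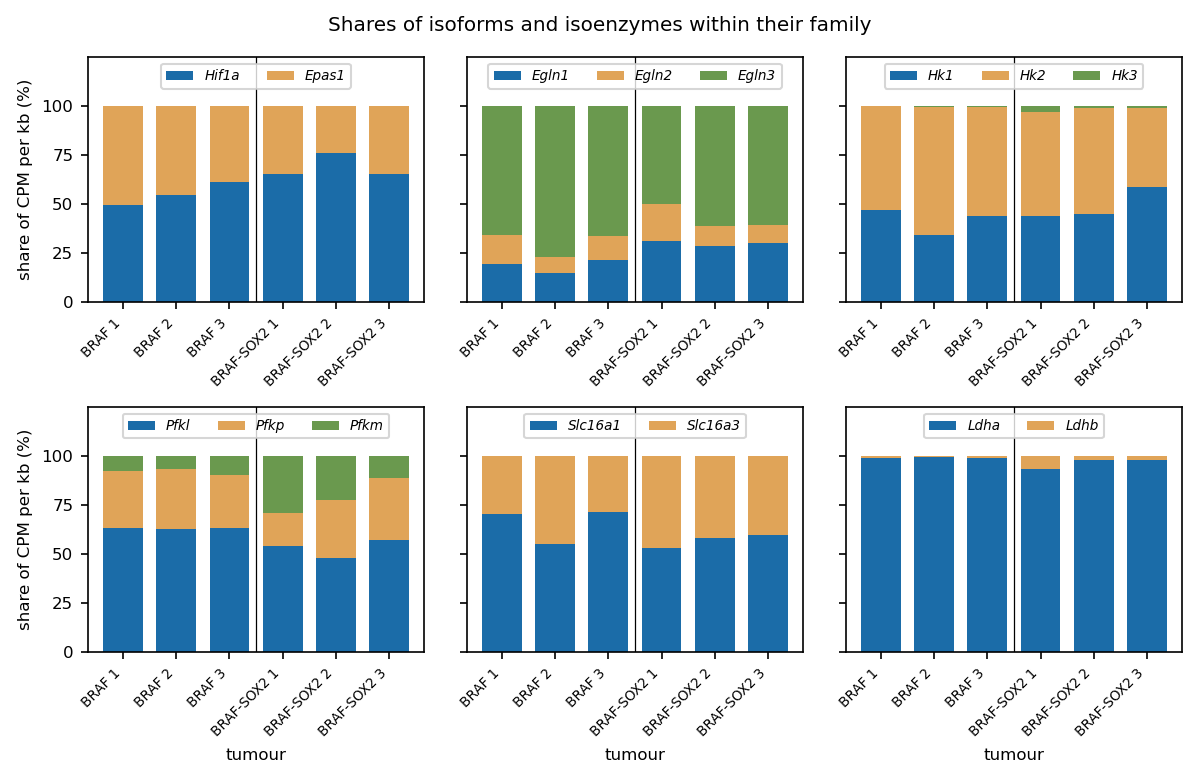
Share of each gene in the summed CPM per kb of its family (y axis, percent) in each tumour (x axis), with a line between the genotypes. The share of Hif1a, of Egln1 and of Pfkm is larger in every Ivl:BRAFV600E-SOX2LSL tumour than in any Ivl:BRAFV600E tumour, and Ldha keeps 93.1% or more of the lactate dehydrogenase subunits throughout.

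The glycolytic enzymes leaned lower in Ivl:BRAFV600E-SOX2LSL tumours without a call. Of 15 enzymes, 14 had a log2 fold change below 0, 7 did not overlap and were lower, and 0 were called by edgeR, with 4 at an unadjusted p below 0.05. Among all genes tested, 16% were lower without overlap, 1.51% were called lower and 25.7% had an unadjusted p below 0.05, so the 4 of 15 are near the background. DESeq2, which called 18.2% of all genes it gave an adjusted p, called 3 of them (Hk2, Pgk1 and Eno1) and limma voom 0. Their median log2 fold change was -0.33. The count below 0 was 15 with upper-quartile scaling, 13 with limma voom, with sex as a covariate and without Ivl:BRAFV600E-SOX2LSL tumour 2, 12 without Ivl:BRAFV600E-SOX2LSL tumour 1, and 10 without Ivl:BRAFV600E tumour 2, where Gpi1, Pfkp, Pfkfb3, Gapdh and Aldoc were above 0. Summed over the 15, their level was 5870, 8429 and 5557 CPM in Ivl:BRAFV600E tumours and 4601, 4969 and 5302 CPM in Ivl:BRAFV600E-SOX2LSL tumours. The sums did not overlap, and their ratio was 0.749 (exact two-sided permutation p = 0.1, the smallest possible). Without Pkm and Eno1, which lead the sum, the ratio was 0.758. Leaving out Ivl:BRAFV600E tumour 2 brought it to 0.868, still without overlap. The sum of keratinocyte markers was lower without overlap in the same Ivl:BRAFV600E-SOX2LSL tumours, with 2 of 8 single markers lower without overlap and 0 called. Krt5, Trp63 and Krt14 overlapped, with log2 fold changes of 0.29, 0.10 and -0.65. The sums of muscle and macrophage markers were higher without overlap. The part of cell composition in the level of the enzymes was not tested.

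Hk2, the hexokinase that is induced in many tumours and commits glucose to the pathway, was at 170, 364 and 162 CPM in Ivl:BRAFV600E tumours and at 91.1, 137 and 97.5 CPM in Ivl:BRAFV600E-SOX2LSL tumours. All Ivl:BRAFV600E tumours were above the other genotype, and tumour 2 stood far above its own group. Hk2 had the lowest log2 fold change of the 39 genes, at -1.10 (standard error 0.34, edgeR adjusted p = 0.11), and -0.61 without that tumour. DESeq2 called it with an adjusted p of 0.0218, and the adjusted p of the other analyses reached 0.268. Hk1, the housekeeping hexokinase, overlapped between genotypes (log2 fold change -0.50, edgeR adjusted p = 0.258), and Hk2 took 53.1% to 65.7% of hexokinase transcripts per kb in Ivl:BRAFV600E tumours and 40.3% to 54.4% in the others.

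The phosphofructokinase step was shared by Pfkl and Pfkp, with log2 fold changes of -0.27 and -0.19 (edgeR adjusted p = 0.346 and 0.707). Pfkl did not overlap between genotypes, at 137 to 194 CPM against 122 to 136 CPM, and its log2 fold change was -0.09 without Ivl:BRAFV600E tumour 2. Its share of phosphofructokinase transcripts per kb was 63.2%, 62.4% and 62.9% against 54.0%, 47.8% and 57.0%. From CPM without length its share was 50.3%, 48.8% and 51.3% against 52.8%, 40.3% and 45.1%, and the genotypes overlapped. The share of Pfkm, the muscle form, was 7.62%, 6.82% and 9.78% against 29.2%, 22.7% and 11.2% per kb, and without length it did not overlap either. Skeletal muscle markers summed to 3513, 3967 and 927 CPM in the same Ivl:BRAFV600E-SOX2LSL tumours. The lowest sum and the lowest share of Pfkm were both in tumour 3, but the highest share was in tumour 1 and the highest sum in tumour 2. The part of muscle in these shares was not tested. Of the bifunctional enzymes that make and break the activator of phosphofructokinase, Pfkfb4 was at 36.7 to 45.9 CPM against 15.8 to 34.2 CPM without overlap (log2 fold change -0.65, edgeR adjusted p = 0.196, and -0.38 without Ivl:BRAFV600E-SOX2LSL tumour 1), and Pfkfb3 overlapped (-0.05).

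Tpi1, the triose phosphate isomerase, was at 392, 595 and 374 CPM and at 253, 334 and 319 CPM (log2 fold change -0.59, edgeR adjusted p = 0.152). Pgk1, the first ATP-yielding kinase of glycolysis, was at 406, 634 and 380 CPM in Ivl:BRAFV600E tumours and at 266, 312 and 312 CPM in Ivl:BRAFV600E-SOX2LSL tumours (log2 fold change -0.67, standard error 0.22, edgeR adjusted p = 0.118). Eno1, the main enolase, was at 1454, 1978 and 1372 CPM and at 973, 1123 and 1181 CPM (log2 fold change -0.55, edgeR adjusted p = 0.142). None of these 3 genes overlapped between genotypes, and Ivl:BRAFV600E tumour 2 was the highest of the 6 for each. Without it their log2 fold changes were -0.35, -0.41 and -0.37. DESeq2 called Pgk1 and Eno1, with adjusted p of 0.0408 and 0.0437, while the other analyses reached 0.267 and 0.316. Of its 100-base windows, Pgk1 shared 51.7% with other annotated genes, Pgam1 33.9%, Gapdh 20.9%, Eno1 20.4% and Pkm 12.3%, so the counts of these genes are uncertain where reads could not be placed.

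The other enzymes lay closer together. Pgam1, a phosphoglycerate mutase, did not overlap, at 278 to 457 CPM against 249 to 275 CPM (log2 fold change -0.40, and -0.13 without Ivl:BRAFV600E tumour 2). Aldoa, the main aldolase, Pkm, the pyruvate kinase, Gpi1, the isomerase, and Gapdh overlapped, with log2 fold changes of -0.25, -0.33, -0.04 and -0.14, which were -0.09, -0.11, 0.10 and 0.01 without that tumour. Gapdh was at only 56.1 to 77.4 CPM, far below Aldoa at 646 to 1035 CPM, and 84 other annotated genes held copies of its windows. Aldoc, at 9.72 to 13.4 CPM over both genotypes, was the 1 enzyme above 0, with a log2 fold change of 0.08. Per kilobase, the highest enzymes in Ivl:BRAFV600E tumours were Pkm at 333, Eno1 at 298 and Aldoa at 294 CPM per kb, and in Ivl:BRAFV600E-SOX2LSL tumours Pkm at 265, Aldoa at 248 and Eno1 at 203 CPM per kb. This order is uncertain, since several of the enzymes share windows with other genes, as given above, and length is the union of exons.

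Ldha, which turns pyruvate into lactate and whose promoter is printed above, was at 896, 1276 and 762 CPM in Ivl:BRAFV600E tumours and at 546, 683 and 691 CPM in Ivl:BRAFV600E-SOX2LSL tumours. The genotypes did not overlap, and Ivl:BRAFV600E tumour 2 was again the highest. The log2 fold change was -0.61 with a standard error of 0.23 (edgeR adjusted p = 0.149), and it was -0.37 without that tumour. Ldhb, the heart form that favours the reverse reaction, had the highest log2 fold change of the 39 genes, at 1.26 (standard error 0.43, edgeR adjusted p = 0.130). It was at 3.85, 5.03 and 4.85 CPM and at 19.2, 6.41 and 7.37 CPM, so that Ivl:BRAFV600E-SOX2LSL tumour 1 stood apart from the other 5. Without that tumour, its log2 fold change was 0.59. The same tumour had the lowest sum of keratinocyte markers (14029 CPM) and the highest of fibroblast (8485 CPM) and macrophage markers (459 CPM). Of the keratinocyte markers, Krt14 was low there (6528 CPM, against 13436 to 31248 CPM elsewhere). Krt5 (2371 against 2562 to 3900 CPM) and Trp63 (281 against 261 to 321 CPM) were closer to the other tumours. The part of cell composition in the value of Ldhb was not tested. DESeq2 called Ldhb with an adjusted p of 0.0394, and the other analyses reached 0.315. Pdk1, a kinase that inhibits pyruvate dehydrogenase, overlapped (log2 fold change -0.17).

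**Figure D3:**
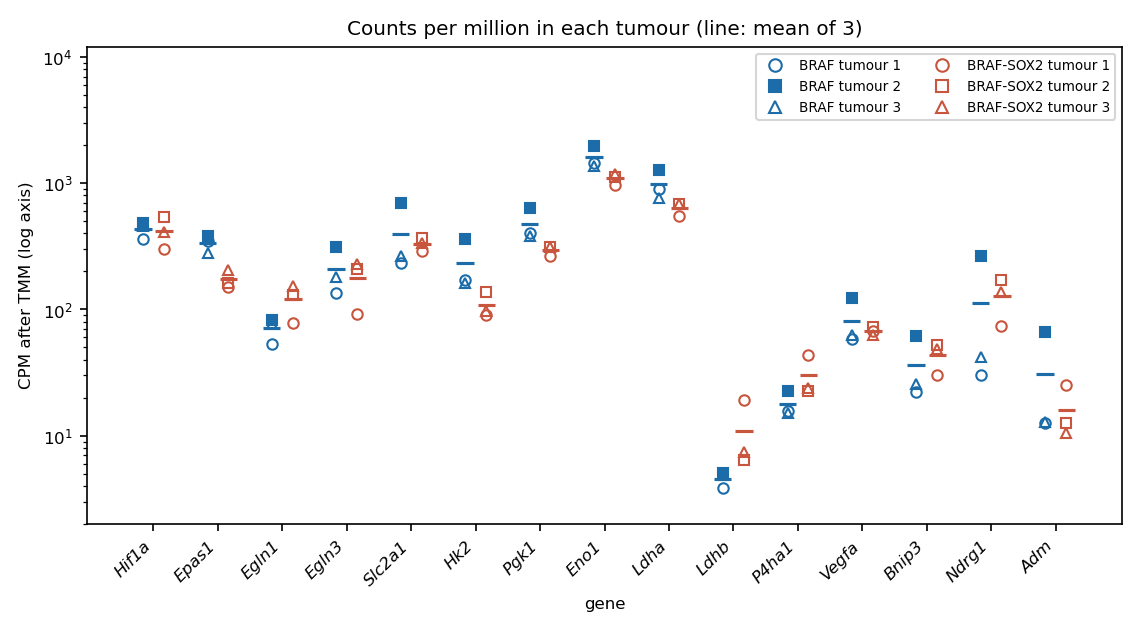
CPM after TMM (y axis, log scale) of 15 of the genes (x axis) in each tumour, with Ivl:BRAFV600E in blue and Ivl:BRAFV600E-SOX2LSL in red and a line at the mean of 3. Ivl:BRAFV600E tumour 2 (filled square) lies above the other Ivl:BRAFV600E tumours for all 15 genes, and for Slc2a1, Ndrg1 and Adm the mean of its group follows it.

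For 3 of the 4 transporters, the Ivl:BRAFV600E tumours spanned all values of the other genotype. Slc2a1 (GLUT1), the main glucose importer of keratinocytes and of many tumours, was at 233, 693 and 265 CPM and at 291, 366 and 334 CPM. All 3 Ivl:BRAFV600E-SOX2LSL tumours lay between the low pair and the single high Ivl:BRAFV600E tumour. Its log2 fold change was -0.26 with all tumours (edgeR adjusted p = 0.717) and 0.41 without Ivl:BRAFV600E tumour 2 (edgeR adjusted p = 0.275, the lowest over the other analyses, which reached 0.944). Slc2a3 (GLUT3) had the same order at low level, at 1.30, 12.8 and 2.85 CPM and 6.97, 6.45 and 5.81 CPM, and so had Slc16a3 (MCT4), the lactate exporter of glycolytic cells, at 36.0, 87.9 and 34.9 CPM and 54.9, 52.4 and 53.8 CPM. Slc16a1 (MCT1), which carries lactate in both directions, was instead lower without overlap, at 71.2, 88.5 and 72.4 CPM and 51.5, 60.3 and 66.0 CPM (log2 fold change -0.38, standard error 0.15, edgeR adjusted p = 0.163).

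Of the other hypoxia targets, P4ha1, a collagen prolyl hydroxylase subunit, was higher without overlap, at 15.8, 22.5 and 15.3 CPM and 43.8, 22.8 and 23.7 CPM. Ivl:BRAFV600E-SOX2LSL tumour 1 was again far above the rest, and the other 2 barely exceeded Ivl:BRAFV600E tumour 2 (log2 fold change 0.75, standard error 0.30, edgeR adjusted p = 0.168, and 0.38 without Ivl:BRAFV600E-SOX2LSL tumour 1). The 9 fibroblast markers, among them collagen genes, had their highest sum in that tumour (8485 CPM), and their part was not tested. P4ha2, Vegfa, Bnip3, Ndrg1, Ankrd37, Ddit4 and Adm overlapped between genotypes, with log2 fold changes from -0.93 (Adm) to 0.27 (Bnip3), and from -0.48 (Ankrd37) to 1.83 (Ndrg1) without Ivl:BRAFV600E tumour 2. The carbonic anhydrases Car9, at 1.05 to 5.2 CPM over both genotypes, and Car12, at 164 to 233 CPM, overlapped as well (0.63 and 0.03, and 1.43 and 0.06 without Ivl:BRAFV600E tumour 2).

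The most regular pattern in these genes was between tumours of 1 genotype. Ivl:BRAFV600E tumour 2 had the highest level among the Ivl:BRAFV600E tumours for 37 of the 39 genes, against 33.2% of all genes tested, and the highest of all 6 tumours for 30 of 39, against 19.4% of all genes. The exceptions within the genotype were Egln2 and Aldoc. This pattern was noticed in the data and is given as a description with no test. With the library total as the only scaling, 30 of 39 were highest in tumour 2 among Ivl:BRAFV600E tumours (20.7% of all genes) and 19 of 39 among all 6 (7.95% of all genes). With upper-quartile scaling or DESeq2 size factors the former count stayed at 37.

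The size of the excess differed by role. The level in tumour 2 over the mean of tumours 1 and 3 had a median of 1.51 over the 39 genes and 0.977 over all genes, and exceeded 1.5 for 21 of 39 (53.8%) against 11.9% of all genes. By role the median ratio was 2.63 for the 4 transporters, 2.16 for the 2 carbonic anhydrases, 1.96 for the 8 other hypoxia targets, 1.45 for the 3 genes of the lactate and pyruvate switch, 1.41 for the 15 glycolytic enzymes and 1.20 for the 7 oxygen-sensing factors. The 2 carbonic anhydrases were far apart, with a ratio of 1.05 for the abundant Car12 and 3.26 for the scarce Car9. Ndrg1, a stress-response gene induced by hypoxia, led with a ratio of 7.44. It was at 30.1, 268 and 41.8 CPM in Ivl:BRAFV600E tumours and at 74.2, 170 and 138 CPM in Ivl:BRAFV600E-SOX2LSL tumours. Slc2a3 followed with 6.17, and Adm, which encodes the vasodilator adrenomedullin, with 5.23, at 12.7, 66.9 and 12.9 CPM and 25.1, 12.6 and 10.6 CPM. Vegfa, the vessel growth factor, was at 58.1, 123 and 62.3 CPM and 68.2, 73.1 and 62.9 CPM. Bnip3 was at 22.4, 61.2 and 25.6 CPM and 30.2, 52.2 and 48.9 CPM. For each of these genes tumour 2 was the highest of the 6. They, Slc2a1 and Slc16a3 were singled out after their values were seen.

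**Figure D4:**
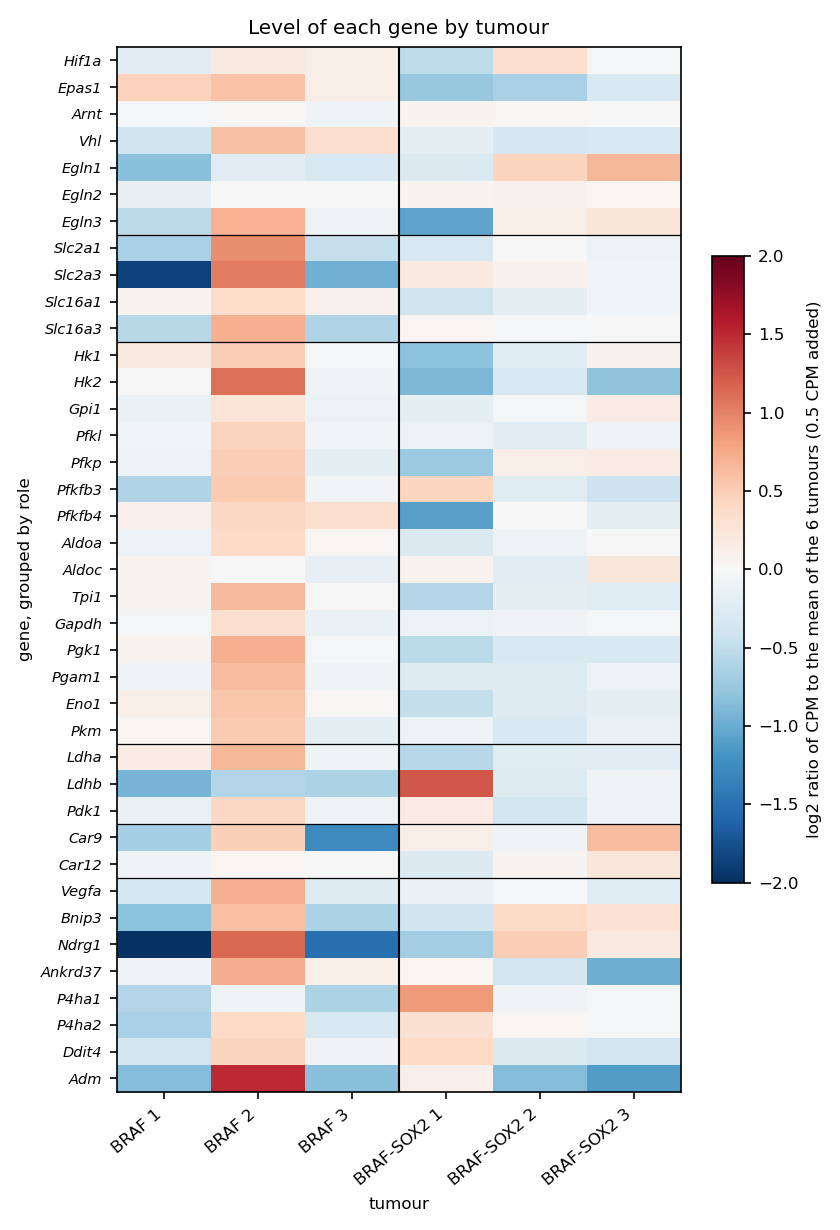
Level of each of the 39 genes (y axis, by role) in each tumour (x axis) as the log2 ratio of CPM to the mean of the 6 tumours, with 0.5 CPM added to both. The column of Ivl:BRAFV600E tumour 2 is red for most genes, while tumours 1 and 3 of that genotype are blue for Ndrg1, Slc2a3, Slc2a1 and Bnip3.

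The 39 genes varied more among Ivl:BRAFV600E than among Ivl:BRAFV600E-SOX2LSL tumours. This is not separate from the pattern above, since tumour 2 was the highest Ivl:BRAFV600E tumour for 37 of 39 genes. No spread without tumour 2 is given. The coefficient of variation of the 39 genes had a median of 27.0% in Ivl:BRAFV600E tumours and 15.9% in Ivl:BRAFV600E-SOX2LSL tumours, while over all genes it was 23.9% and 29.3%. It was larger in Ivl:BRAFV600E tumours for 27 of 39 genes (69.2%), against 45% of all genes. Without tumour 2 the median log2 fold change of the 39 genes was 0.06, with 15 of 39 below 0 and 11 of 39 on the other side of 0 than before. EdgeR then called 0 of the 39 and 50 of all genes. The median of the transporters then went from -0.12 to 0.50, and that of the glycolytic enzymes from -0.33 to -0.11. For Ndrg1 the log2 fold change went from 0.17 to 1.83, and for Adm from -0.93 to 0.33.

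Other features moved with tumour 2. Its 5 red cell markers summed to 1569 CPM, against 37.5 to 96.2 CPM in the other 5 tumours, and Hbb-bs alone was at 905 CPM. Its 8 keratinocyte markers had the highest sum of the 6 tumours (131629 CPM). Of these, Krt14 was also highest there (31248 CPM), while Krt5 (2668 CPM) and Trp63 (297 CPM) were higher in Ivl:BRAFV600E-SOX2LSL tumours 2 and 3. Its 9 fibroblast markers had the lowest sum (792 CPM, against 2166 to 8485 CPM elsewhere). It had the fewest genes detected, 25078 against 25716 to 27611, and the lowest TMM factor, 0.824. Endothelial markers, at 193 CPM, were near those of the other tumours. The part of cell composition, blood content or handling in the pattern was not tested.

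Related lists were read beside the 39 genes. Of 52 other hypoxia targets, 33 (63.5%) were highest in tumour 2 among Ivl:BRAFV600E tumours, with a median ratio of 1.17. So were 7 of 10 pentose phosphate genes (70%, median ratio 1.17) and 11 of 20 HIF regulators outside the 39 genes (55%, 1.13), and in the other 6 lists between 16.7% and 41.7% of the genes were, among them 6 of 17 other glycolytic isoenzymes (1.04). Between genotypes, 2 of the 52 targets were called higher and 2 lower, against 2.39% and 1.51% of all genes, with a median log2 fold change of -0.16. Nos2, the inducible nitric oxide synthase, was at 0.477 to 0.693 CPM and 2.52 to 7.84 CPM (log2 fold change 2.91, edgeR adjusted p = 0.0327). Macrophages and neutrophils can express Nos2, and their markers summed to 59.0 to 109 CPM and 15.1 to 23.0 CPM in Ivl:BRAFV600E tumours and to 149 to 459 CPM and 38.4 to 59.4 CPM in Ivl:BRAFV600E-SOX2LSL tumours. Of these markers 1 of 8 and 0 of 6 tested were called, 7 of 8 and 4 of 6 were higher without overlap, and their part in Nos2 was not tested. Tgfbi, a matrix protein, was at 103 to 133 CPM and 309 to 428 CPM (1.57, edgeR adjusted p = 0.0131). Rora, a nuclear receptor, was at 479 to 659 CPM and 72.0 to 213 CPM (-1.88, edgeR adjusted p = 0.0455), and Dusp1, a MAPK phosphatase, at 106 to 159 CPM and 28.3 to 55.9 CPM (-1.69, edgeR adjusted p = 0.0283). Of 20 HIF regulators outside the 39 genes, 1 was called. It was Arnt2, a paralogue of Arnt, at 1.71 to 2.61 CPM and 7.51 to 21.9 CPM (2.59, edgeR adjusted p = 0.0362).

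Neighbouring branches of glucose use held between 0 and 3 called genes per list, where 2.39% of all genes were called higher and 1.51% lower. Of 10 pentose phosphate genes, 1 was called lower, G6pdx, the first and limiting enzyme, at 323, 435 and 300 CPM and 117, 163 and 185 CPM (log2 fold change -1.19, edgeR adjusted p = 0.0383). Of 18 glycogen genes, 3 were called higher and 0 lower, namely Pygm and Pygl, the muscle and liver glycogen phosphorylases, and Gyg, the primer of glycogen synthesis. Pygm was at 0.307 to 0.713 CPM and 7.55 to 70.9 CPM (5.88, edgeR adjusted p = 0.0272), Pygl at 4.40 to 7.21 CPM and 11.8 to 14.0 CPM (1.19, edgeR adjusted p = 0.0391), and Gyg at 1.09 to 2.04 CPM and 3.29 to 10.5 CPM (2.27, edgeR adjusted p = 0.0489). Of 17 other glycolytic isoenzymes, Eno3, the muscle enolase, was called higher at 0.955 to 1.19 CPM and 5.6 to 29.8 CPM (3.93, edgeR adjusted p = 0.0267), and Minpp1, a phosphatase, lower at 34.6 to 40.4 CPM and 22.8 to 25.7 CPM (-0.63, edgeR adjusted p = 0.0465). Of 12 genes of pyruvate dehydrogenase and its regulators, Pdk2, a kinase of the complex, was called higher at 0.739 to 2.19 CPM and 4.77 to 8.56 CPM (2.14, edgeR adjusted p = 0.0445). Pygm and Eno3 are typical of skeletal muscle, whose markers were raised in the same tumours. Across Ivl:BRAFV600E-SOX2LSL tumours 1 to 3, Gyg (10.5, 7.71 and 3.29 CPM) and Pdk2 (8.56, 6.83 and 4.77 CPM) fell in the same order as Pygm and Eno3. Pygl did not (11.8, 12.7 and 14.0 CPM). The muscle sum was also lowest in tumour 3, but highest in tumour 2. The part of muscle in these genes was not tested. The calls of all 12 genes named from these lists were lost without Ivl:BRAFV600E tumour 1 and without Ivl:BRAFV600E tumour 2. Of the 6 fits without a tumour, Tgfbi was called in 4, Arnt2, Nos2, Dusp1, Eno3 and Pygm in 2, and Rora, Minpp1, Pygl, Gyg, G6pdx and Pdk2 in 1. With sex as a covariate the calls of Nos2 and Tgfbi held and the other 10 did not. Gyg also lost its call in edgeR with DESeq2 size factors, which left 2 glycogen genes called. EdgeR called 0 of 6 gluconeogenic genes (2 at an unadjusted p below 0.05), where DESeq2 called 1 and limma voom 0. It called 0 of 16 other sugar and monocarboxylate carriers (9 at an unadjusted p below 0.05 against 25.7% of all genes, 9 higher without overlap against 18.2%, median log2 fold change 0.93), where DESeq2 called 7 and limma voom 0. It called 0 of 11 other carbonic anhydrases (2 at an unadjusted p below 0.05), where DESeq2, limma voom and 5 of the other edgeR fits called 1 each, namely those with DESeq2 size factors, with upper-quartile scaling, with no low-count filter, with filterByExpr and without Ivl:BRAFV600E-SOX2LSL tumour 1.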

How the data were processed

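Bulk RNA was sequenced from skin tumours after depletion of ribosomal RNA. Per the submitters' processing notes and the study's methods, the authors checked reads with FastQC 0.11.8, trimmed them with Trim Galore, aligned them to GRCm38 with HISAT2 2.1.0 and counted them per gene with featureCounts (Subread 1.6.3). They deposited raw read counts per gene, with no normalisation, filter or pooling. The strand and multimapping settings are not given in the sources used here. Exons of 13 of the 39 genes share bases with a gene on the opposite strand, and exons of 2, Hif1a and Pkm, with a gene on the same strand, so those counts are uncertain to that extent.

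Of the 7 columns of counts, 1 was not used because its genotype was uncertain, and the test planned for the labelled samples was run on 3 tumours against 3, from separate mice. Depth was between 23565432 and 31152826 counts per tumour. A gene was tested if any tumour had 5 or more reads. Libraries were scaled by TMM, and the genotype difference was fitted in edgeR 4.0.16 under R 4.3.3 (quasi-likelihood test, Benjamini-Hochberg adjustment over all 24433 genes tested, threshold 0.05). The code was tested on simulated counts. CPM are counts per 1 M of library after TMM, and CPM per kb uses the union of exons in GENCODE M21 on GRCm38. Isoenzyme shares and sums were compared by exact two-sided permutation tests. Motifs were searched on both strands of RefSeq promoters (GRCm38.p6). Copies were counted as windows of 100 bases of a transcript that another annotated gene also holds.

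The genes and lists were chosen with earlier results of these data known. Values in every tumour were given for genes that were called, for the oxygen-sensing factors, for genes without overlap at an unadjusted p below 0.05, and for the 2 largest changes in each direction. Of the other lists, up to 3 called genes per direction were named. The alternatives were DESeq2 1.42.0, limma 3.58.1 (voom with sample weights), 2 other scalings, 2 other filters, sex as a covariate, library sizes without the 10 genes with the most counts or without muscle genes, each tumour left out, shares without length, and ACGTG alone. Scaling by library total was added after the data were seen. A comparison of protein sequences was planned and is not analysed here.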

Additional observations from a re-analysis of the deposited data

How the results depend on the processing

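Of 585 log2 fold changes of the 39 genes under the alternatives, 573 stayed on their side of the threshold. In 6 the call of Epas1 was lost, in 6 another gene gained a call (Egln1 under 2 settings and Hk2, Pgk1, Eno1 and Ldhb under DESeq2), and no called value changed sign. Of values that were not called, 39 changed sign, 11 of them without Ivl:BRAFV600E tumour 2. DESeq2 called 1 of the 39 genes higher and 4 lower, limma voom called 1 higher (Egln1) and 1 lower (Epas1), and sex as a covariate left 0 lower. With a tumour left out, between 0 and 1 were called higher and between 0 and 1 lower. Over all genes, edgeR called 954, DESeq2 3653 (18.2% of the 20046 with an adjusted p), limma voom 2142, edgeR without a filter on low counts 1759 and edgeR with sex as a covariate 228. With a tumour left out the count ranged from 22 (without Ivl:BRAFV600E tumour 1) to 1575 (without Ivl:BRAFV600E-SOX2LSL tumour 1), with 50 without Ivl:BRAFV600E tumour 2. The cause of these differences was not tested. The median log2 fold change of the 39 genes lay between -0.29 and 0.06 and was above 0 only without Ivl:BRAFV600E tumour 2. The share of genes with a motif was 88.9% with both motifs and 66.7% with ACGTG alone. Of 26 isoenzyme shares, 7 moved by more than the spread between tumours when length was left out. Of other named genes, 117 of 180 comparisons kept the call and 63 lost it. No paired analysis was possible because the columns carry no replicate number. The number of tumours limits most statements, and depth limits those on Hif3a. Car9 was low but above the level of 3 counts, and it varied among Ivl:BRAFV600E tumours, at 1.84, 4.71 and 1.05 CPM.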
